A study of Homo sapiens with 18 samples.

Results

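Receptor tyrosine kinases outside the EPH family were followed as 38 genes, taken by symbol from a list of this class and all found among the 55765 gene symbols of the deposited table. They cover the EGF receptor (ERBB), FGF receptor, PDGF and stem cell factor receptor, VEGF receptor, hepatocyte growth factor receptor, neurotrophin receptor, RET, ALK, insulin receptor, discoidin domain receptor, TIE, TAM (TYRO3, AXL, MERTK) and ROR groups, with ROS1, MUSK, PTK7 and RYK. The list does not hold every member of this class. The rule that names the 38 genes uses no measured value.

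Receptor tyrosine kinases are single-pass membrane proteins that bind growth factors or matrix outside the cell, pair up and phosphorylate one another inside it. The phosphorylated tails recruit adaptors such as GRB2 and SHC1, which feed the RAS to ERK cascade and the PI3 kinase pathway, and ERK output in turn switches on its own inhibitors. PTK7, RYK and ERBB3 are members whose kinase domain is inactive or weak. Tazemetostat blocks EZH2, the catalytic subunit of the Polycomb complex that marks silent genes on histone H3, and that complex is known to silence many developmental genes.

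The samples were G401 cells, a malignant rhabdoid tumour line, grown as a control (WT) or without RB1 and given the EZH2 inhibitor tazemetostat or its solvent. WT cells had been edited with CRISPR/Cas9 at the AAVS1 safe harbour site and kept RB1, and the RB1-null cells were 2 independent clones, E1 and F2, with both RB1 alleles disrupted. Each of the 3 lines received 10 µM tazemetostat or an equal volume of DMSO for 11 days in 3 biological replicates, which gives 6 groups and 18 libraries of poly(A) RNA. Each RB1-null line is 1 clone, so a difference between a clone and WT cannot be told apart from a difference between single clones of this line. The sources used here do not say how the replicate cultures were separated, so p-values measure the spread between these samples.

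Libraries held 25709489 to 39314860 reads, and a first principal component with 80.9% of the variance separated tazemetostat from DMSO. RB1, the targeted gene, read 2300 to 2828 normalized counts over the 6 WT libraries and 505 to 1045 over the 12 clone libraries. SMARCB1, which rhabdoid tumours lose, had 0 reads in all 18 libraries. Values are normalized counts, that is gene counts divided by 1 size factor per library. Changes are log2 differences of (normalized count + 1), tested with limma in 16154 genes with a mean of at least 10, and a gene passed when its Benjamini-Hochberg adjusted p was under 0.05 and its log2 change at least 1 in size. Rose, fell, higher and lower are used of what passed this threshold, and above and below describe the values themselves.

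The 38 receptors ranged from 0 to 20619.9 normalized counts in a library, the highest value being that of PTK7. In WT with DMSO, 27 of them had more than 3 reads over the 3 libraries, and 9 had none. With tazemetostat 37 were above 3 reads in WT. The counts went from 25 to 37 in E1 and from 26 to 36 in F2. In bulk RNA, more expressing cells and more RNA per cell cannot be told apart. The summed level of the 38 genes was 82137 to 83663 normalized counts in WT with DMSO and 109985 to 113647 with tazemetostat, so those groups did not overlap. It was 89038 to 99596 and 91556 to 95108 in E1, which overlapped, and 76325 to 78809 and 86483 to 89278 in F2, which did not.

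**Figure D1:**
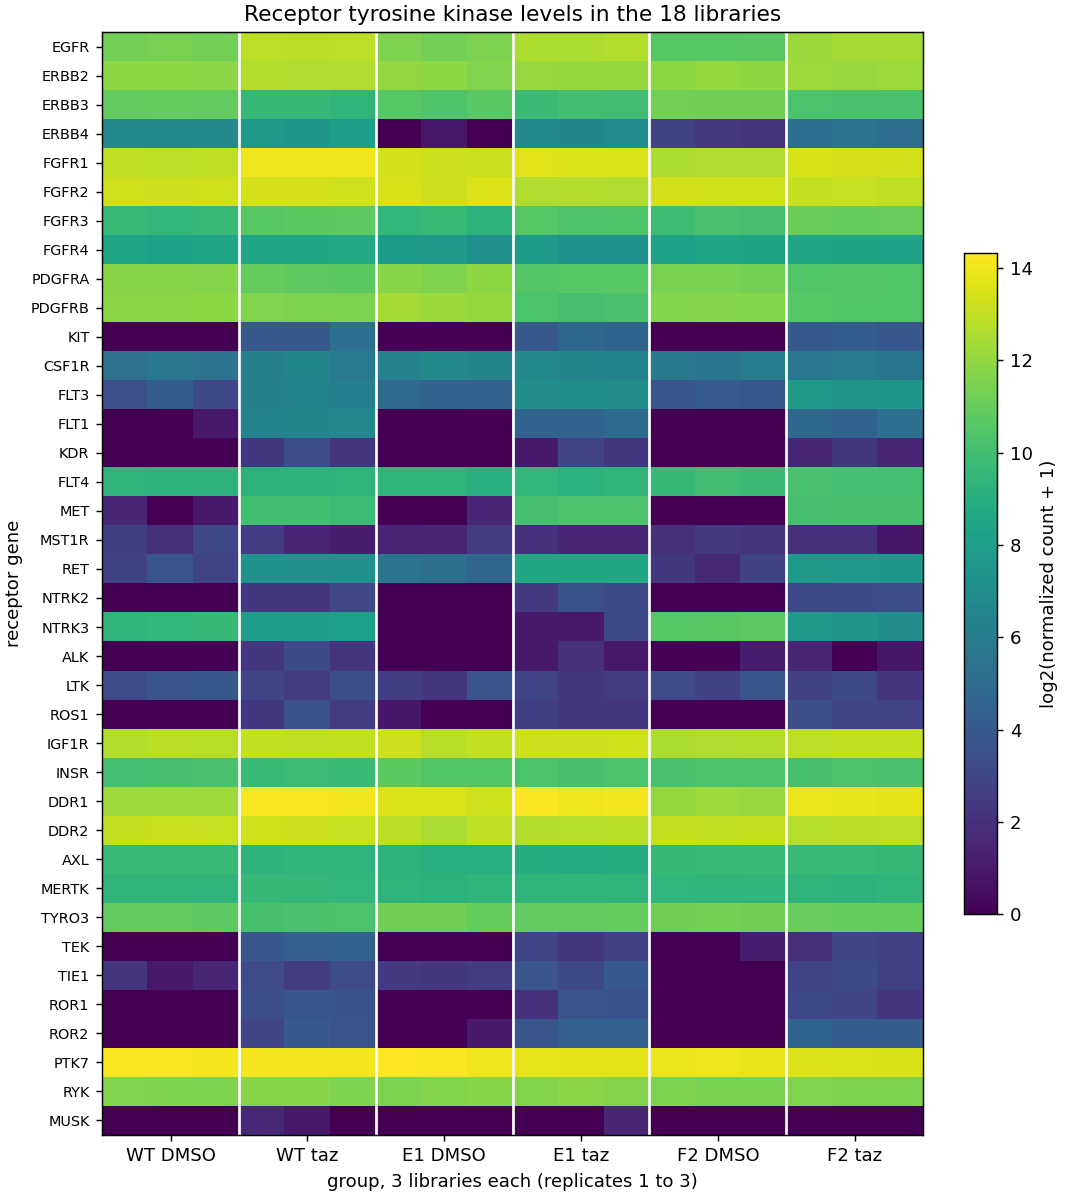
Level of each of the 38 receptors (rows, ordered by family) in the 18 libraries (columns, 3 per group), as log2(normalized count + 1), where taz is tazemetostat. The darkest cells in the DMSO columns are the 11 receptors with at most 3 reads per DMSO group, and most of them turn lighter in the tazemetostat columns.

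Per kilobase of exon, PTK7 stood at 2061 normalized counts in WT with DMSO, FGFR2 at 1319 and the collagen receptor DDR2 at 837. FGFR1 (564), DDR1 (529), PDGFRB (522) and IGF1R (502) followed on the same per-kilobase scale. With tazemetostat DDR1 reached 2028 per kilobase in WT, beside 1979 for PTK7. MET went from 0.128 to 139 per kilobase, which brought it near MERTK at 158.

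Of the 38 genes, 26 had a mean of at least 10 and were tested. In WT 11 of the 26 passed with tazemetostat, where 21.3% of all tested genes did. Of these 9 were higher, against 14.5% of all genes, and 2 were lower, against 6.77%. In E1 9 passed (all genes 15.1%), 7 of them higher (11.3%) and 2 lower (3.78%). In F2 10 passed (all genes 17.0%), 7 higher (13.3%) and 3 lower (3.71%). The median log2 change of the tested receptors was 0.17 for WT, 0.09 for E1 and 0.04 for F2, beside 0.03, 0.02 and 0.02 over all tested genes.

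MET and FLT1 reached the mean of 10 only through their tazemetostat libraries, so they had to differ. Without them 9 of 24 passed in WT (7 higher), 7 in E1 (5 higher) and 8 in F2 (5 higher). Scaling every library to the same total lowered the median change of all genes in WT from 0.03 to -0.13. Under that scaling 9 receptors passed in WT, 6 higher and 3 lower: ERBB4, FGFR1 and FGFR3 no longer passed and PDGFRA did. Of all genes 22.2% passed under it, 12.8% higher and 9.41% lower.

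EGFR, ERBB4, FLT1, FLT3, MET and RET were higher with tazemetostat in all 3 lines, and no tested receptor was lower in all 3. Of these, FLT1 and MET were tested only through their tazemetostat libraries. In at least 1 line ERBB3, FGFR1, FGFR3, PDGFRA, PDGFRB, NTRK3 and DDR1 also passed. The other 13 tested receptors passed in no line: ERBB2, FGFR2, FGFR4, CSF1R, FLT4, IGF1R, INSR, DDR2, AXL, MERTK, TYRO3, PTK7 and RYK.

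**Figure D2:**
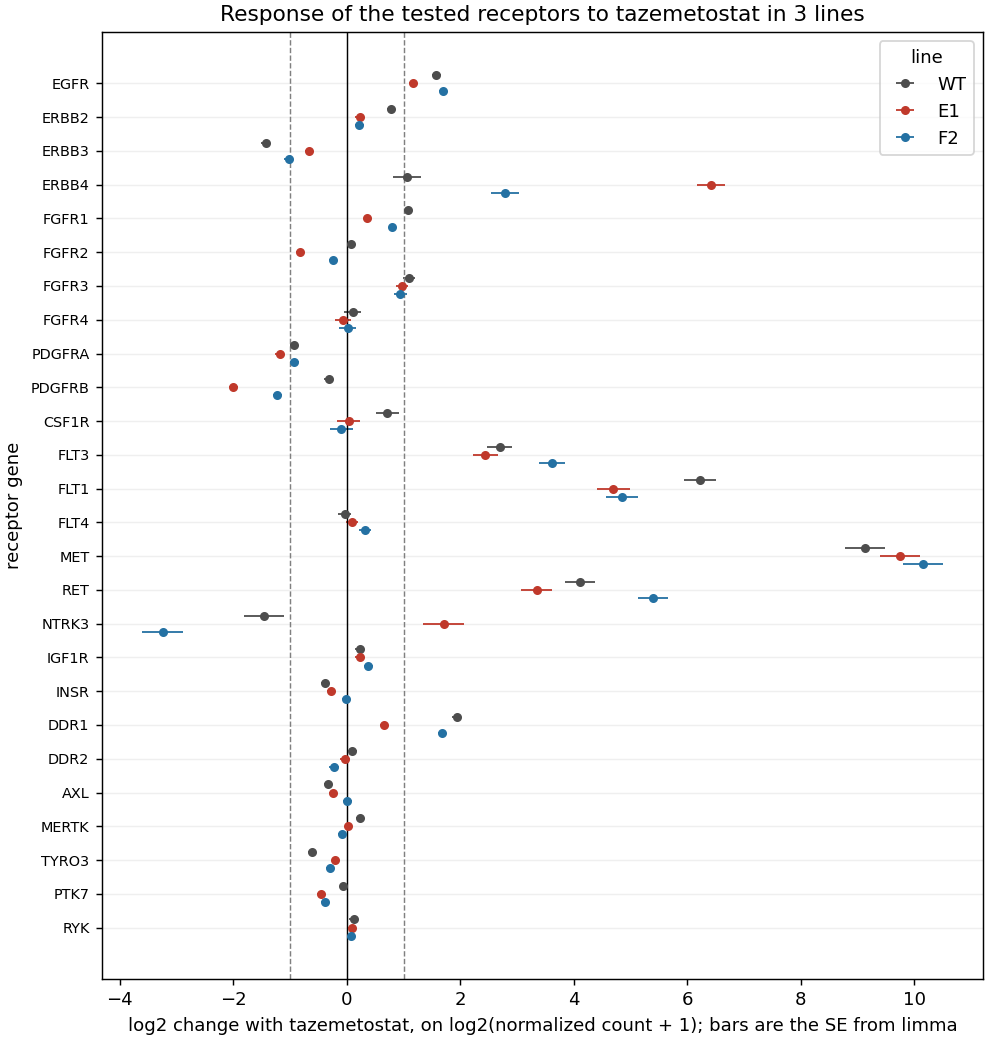
Log2 change with tazemetostat for the 26 tested receptors, with WT in grey, E1 in red and F2 in blue, bars for the SE from limma and dashed lines at a log2 change of 1 in either direction. MET lies farthest to the right in every line (9.13, 9.74 and 10.15), and NTRK3 is the receptor with changes past the threshold in opposite directions (-1.46, 1.71 and -3.25).

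MET, the receptor for hepatocyte growth factor, was almost absent with DMSO and well detected with tazemetostat. In WT it read 1.75, 0 and 0.946 normalized counts with DMSO and 1001, 1026 and 913 with tazemetostat. In E1 the values were 0, 0 and 1.95 with DMSO and 1105, 1290.1 and 1301 with tazemetostat. In F2 they were 0 in all 3 libraries with DMSO and 1104, 1155 and 1141 with tazemetostat. The lowest of the 9 tazemetostat libraries was at 913 and the highest DMSO library at 1.95, so the groups were far apart in every line. The log2 rises of MET in WT, E1 and F2 were 9.13 ± 0.35 (SE), 9.74 ± 0.35 and 10.15 ± 0.35 (limma adjusted p 5.4e-14, 2.1e-14 and 9.9e-15). MET was tested only through its tazemetostat libraries, so these p-values are no separate evidence of a rise. WT held 3 reads in DMSO, which makes the ratio of means 1092 with a 95% counting interval of 374 to 5293. In E1, with 2 reads, it was 1897 (95% counting interval 525 to 15666). In F2, with 0 reads, MET was at least 1038-fold higher, set against 3 reads over the group. With tazemetostat MET did not differ past the threshold between E1 and WT (0.33, adjusted p 0.45) or between F2 and WT (0.21, adjusted p 0.63). The treated libraries of both clones lay above those of WT without overlap. The SE of 0.35 behind these p-values is pooled over all 6 groups, including the DMSO groups with almost no reads.

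RET, the receptor that GDNF family ligands activate through GFRA co-receptors, rose in every line from different starting levels. In WT it read 6.11, 12.3 and 6.62 normalized counts with DMSO and 157, 152 and 153 with tazemetostat. In E1 RET read 45.5, 38.6 and 27.3 with DMSO and 375, 387 and 374 with tazemetostat. RET in F2 stood at 4.10, 2.07 and 6.07 with DMSO and 214, 202 and 188 with tazemetostat. E1 was above the other lines with DMSO and again with tazemetostat, and no groups overlapped within a line. As ratios of means, WT rose 18.5-fold, E1 10.2-fold and F2 49.3-fold. The log2 changes were 4.11 ± 0.27 (SE), 3.34 ± 0.27 and 5.39 ± 0.27, with limma adjusted p of 1.3e-10, 3.7e-09 and 2.4e-12.

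FLT3, a cytokine receptor of blood progenitors, also rose in every line. In WT it read 10.5, 17.9 and 7.57 normalized counts with DMSO and 74.9, 88.9 and 72.7 with tazemetostat. In E1 FLT3 read 29.5, 22.2 and 21.4 with DMSO and 134, 140.2 and 132 with tazemetostat. FLT3 in F2 stood at 13.3, 16.6 and 14.6 with DMSO and 217, 179.7 and 182 with tazemetostat. The lowest tazemetostat library of each line was above its highest DMSO library, and with tazemetostat the lines were ordered WT, E1, F2 without overlap. The log2 rises of FLT3 in WT, E1 and F2 were 2.69 ± 0.22 (SE), 2.44 ± 0.22 and 3.61 ± 0.22 (limma adjusted p 4.8e-09, 2.9e-08 and 7.3e-11).

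FLT1, a VEGF receptor, was at or near 0 with DMSO. In WT it read 0, 0 and 0.946 normalized counts with DMSO and 84.7, 92.6 and 99.8 with tazemetostat. In E1 FLT1 read 0 in all 3 libraries with DMSO and 22.4, 22.2 and 31.1 with tazemetostat, while its F2 values were 0 in all 3 libraries with DMSO and 26.2, 22.2 and 37.0 with tazemetostat. The WT libraries with tazemetostat lay above all clone libraries. Against 1 read in DMSO the WT ratio was 293 (95% counting interval 52.6 to 11566). The clones, with 0 reads, were at least 26.7-fold (E1) and at least 26.1-fold (F2) higher with tazemetostat. The limma adjusted p were 8.1e-13, 6.4e-11 and 3.4e-11. Like MET, FLT1 was tested only through its tazemetostat libraries, so these p-values are no separate evidence of a rise.

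**Figure D3:**
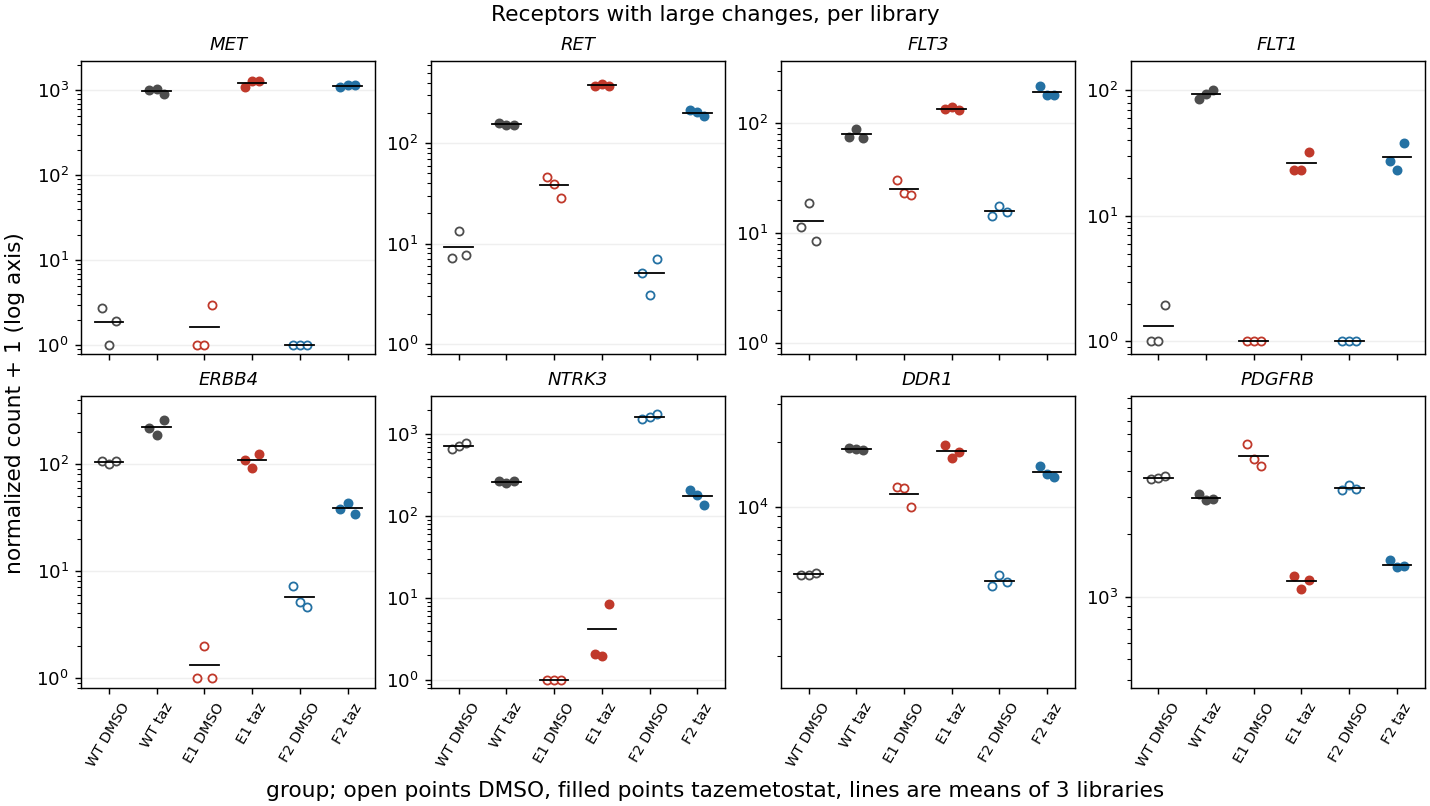
Normalized count + 1 on a log axis for 8 receptors in each library, by group, with open points for DMSO, filled points for tazemetostat (taz) and a line at the mean of 3 libraries; each panel has its own axis. MET and FLT1 start at the bottom of the axis in every DMSO group, ERBB4 starts at different levels in the 3 lines, and NTRK3 is at 0 in E1 with DMSO.

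A larger set of receptors was silent in DMSO. KIT, FLT1, KDR, MET, NTRK2, ALK, ROR1, ROR2, TEK, ROS1 and MUSK, 11 of the 38, had at most 3 reads in total in every DMSO group. Above 3 reads in every tazemetostat group were 9 of the 11. Among all 13200 genes of the table with at most 3 reads in every DMSO group and some value above 0, 11.5% did the same. Those genes were not matched to the receptors on level, and any value above 0 in some library was enough to be counted. The exceptions among the 11 receptors were ALK, with 16, 5 and 3 reads in WT, E1 and F2, and MUSK, the muscle receptor for agrin signals, with at most 3 reads in any group.

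KIT, the receptor for stem cell factor, had 0 reads in all 9 DMSO libraries. With tazemetostat KIT ranged over 14.8 to 36.9 normalized counts in WT. E1 libraries gave 14.9 to 27.1 and F2 libraries 13.9 to 18.2. The treated KIT level was at least 24.1-fold that of DMSO for WT, at least 23.1-fold for E1 and at least 14.5-fold for F2, each set against 3 reads over the DMSO group. Its mean over 18 libraries was 9.99, just under the limit of 10, so it has no test.

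TEK, the angiopoietin receptor, had 0 reads in WT and E1 with DMSO and 1 read in F2. With tazemetostat TEK read 13.8, 19.6 and 20.9 in WT. The treated E1 libraries gave 6.39, 3.87 and 5.65 and those of F2 2.91, 7.07 and 5.55. The WT tazemetostat libraries were above all clone libraries. TEK was at least 19.7-fold higher in WT and at least 5.62-fold higher in E1, and its ratio in F2 was 12.8 (95% counting interval 2.30 to 505).

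The WNT5A receptors ROR1 and ROR2 stood at 11.3 and 11.4 normalized counts on average with tazemetostat in WT, 8.70 and 17.6 in E1 and 6.18 and 19.3 in F2. Of their 18 DMSO libraries, 17 were at 0. NTRK2, the BDNF receptor, averaged 5.02, 7.79 and 8.36 with tazemetostat, KDR, the main signalling receptor for VEGFA, 5.66, 3.87 and 2.61, and ROS1 6.70, 4.32 and 7.75, in WT, E1 and F2. These 3 genes rest on 8 to 26 reads per tazemetostat group, and they were below 1 normalized count in every DMSO library.

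TIE1, a partner of TEK, went from 7 to 21 reads over the 3 WT libraries, from 14 to 35 in those of E1 and from 0 to 21 in those of F2. LTK, a relative of ALK, ranged from 3.70 to 14.2 normalized counts over all 18 libraries, and MST1R, a relative of MET, from 0.925 to 7.57. Their tazemetostat and DMSO groups overlapped in every line, except for MST1R in F2. Other annotated genes share 6.78% of the exon bases of MST1R and 4.34% of those of ROS1. For KIT, KDR, NTRK2, ROR1, ROR2, TEK, TIE1 and ROS1, 8 of the 12 untested receptors, every tazemetostat library was above every DMSO library in all 3 lines. Of the 19190 untested genes with a value above 0, 3.81% met that condition, and those genes were not matched to the receptors on level. Testing genes with a mean of at least 1 brought in 11 more receptors and made the counts past the threshold 20 in WT (23.4% of all genes then tested), 18 in E1 (16.9%) and 18 in F2 (19.4%). The genes gained were those 8 in each line, with ALK in WT and E1.

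**Figure D4:**
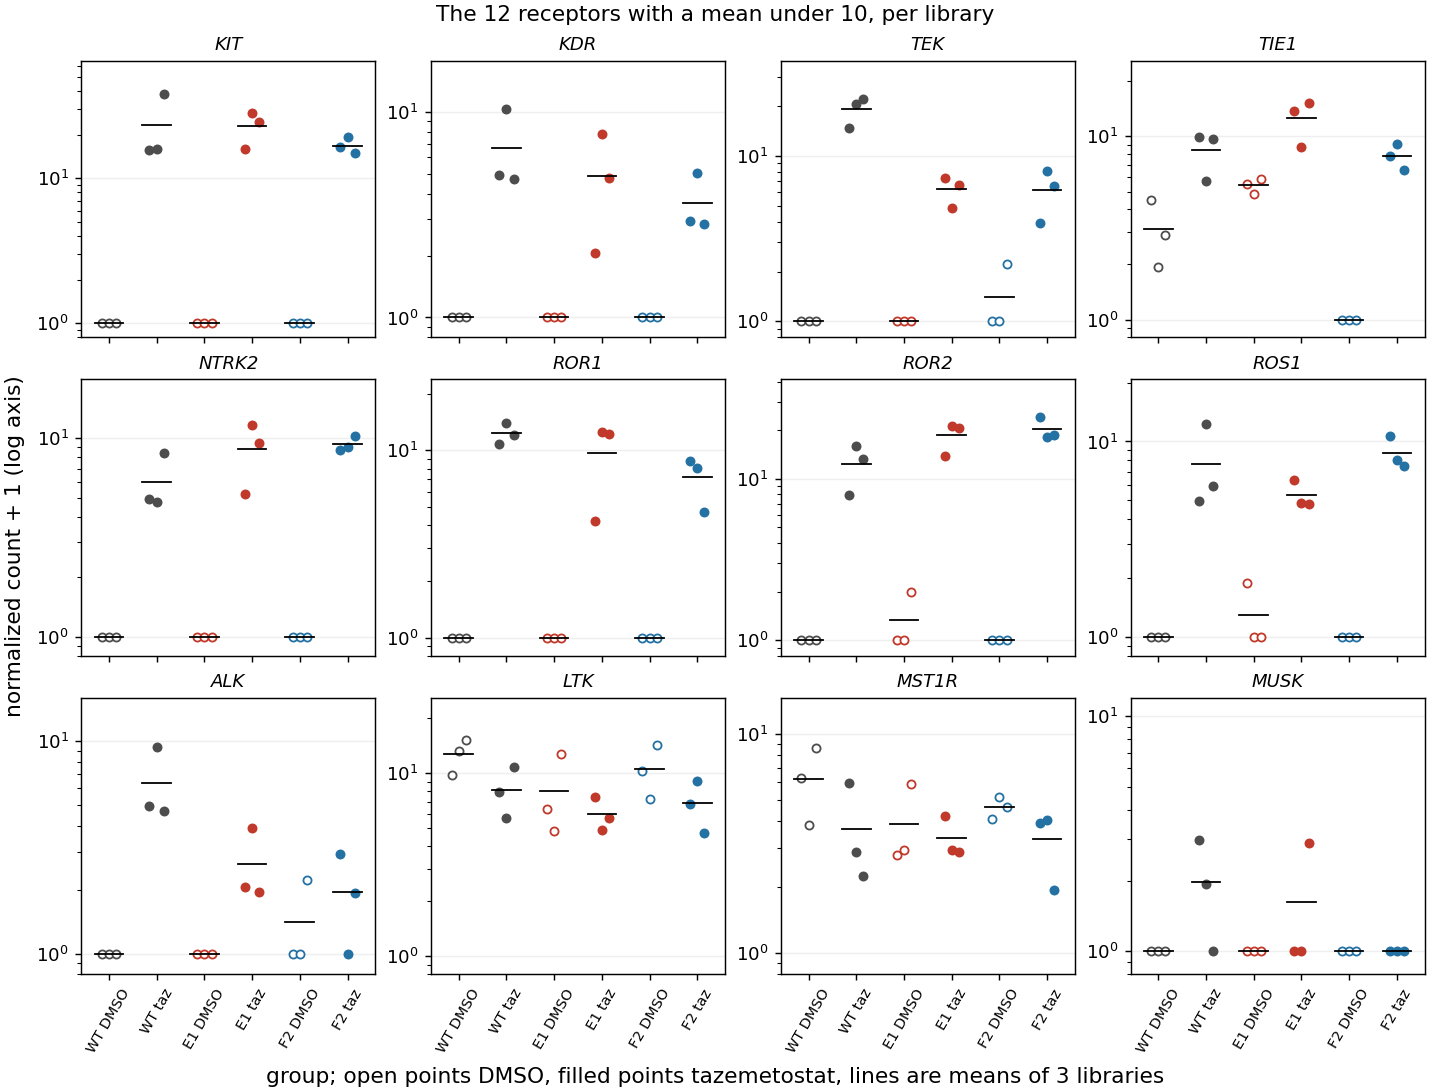
Normalized count + 1 on a log axis for the 12 receptors with a mean under 10, per library and group, with open points for DMSO, filled points for tazemetostat (taz) and a line at the mean of 3 libraries. KIT, KDR, NTRK2 and ROR1 are at 0 (drawn as 1) in all 9 DMSO libraries, whereas LTK overlaps between treatments in every line.

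The start regions of the silent and the other receptors were compared for CpG dinucleotides, since Polycomb targets in mammals are known to be rich in them. RefSeq promoter sequence was matched by symbol for 35 of the 38 genes (assembly GRCh38.p14, whereas the submitters' processing notes name hg19), and the 250 bases before the start were searched for CG. The 4 sequences below show a CpG-rich and a CpG-poor window among receptors that were silent in DMSO (MET, TEK) and among those expressed throughout (IGF1R, DDR2). All are on the plus strand, 5′ to 3′, with each CG in capitals: MET at chr7:116671946-116672195, TEK at chr9:27108975-27109224, IGF1R at chr15:98648289-98648538 and DDR2 at chr1:162630613-162630862.
MET: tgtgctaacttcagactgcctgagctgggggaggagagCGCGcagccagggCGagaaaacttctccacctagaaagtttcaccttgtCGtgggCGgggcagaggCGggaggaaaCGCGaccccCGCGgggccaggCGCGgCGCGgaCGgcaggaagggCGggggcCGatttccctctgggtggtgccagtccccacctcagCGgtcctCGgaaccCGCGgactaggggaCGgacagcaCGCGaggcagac
TEK: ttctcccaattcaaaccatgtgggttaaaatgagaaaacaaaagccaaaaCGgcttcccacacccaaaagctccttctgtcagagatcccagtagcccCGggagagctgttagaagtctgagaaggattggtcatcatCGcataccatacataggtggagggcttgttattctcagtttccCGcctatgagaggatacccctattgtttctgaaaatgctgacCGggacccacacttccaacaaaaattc
IGF1R: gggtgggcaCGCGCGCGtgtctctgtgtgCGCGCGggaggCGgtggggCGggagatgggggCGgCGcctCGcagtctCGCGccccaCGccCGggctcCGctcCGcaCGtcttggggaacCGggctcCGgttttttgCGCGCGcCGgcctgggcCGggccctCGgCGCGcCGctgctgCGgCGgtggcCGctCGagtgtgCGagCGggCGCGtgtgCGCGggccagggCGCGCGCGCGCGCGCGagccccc
DDR2: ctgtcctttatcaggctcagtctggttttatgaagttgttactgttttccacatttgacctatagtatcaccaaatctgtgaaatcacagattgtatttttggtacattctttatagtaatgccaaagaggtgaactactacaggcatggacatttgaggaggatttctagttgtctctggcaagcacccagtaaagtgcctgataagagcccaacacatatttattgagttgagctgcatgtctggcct
The MET window held 24 CG, TEK 5, IGF1R 48 and DDR2 0. Of 27305 promoter windows in the table, 23.3% held at least as many as MET, 65.0% at least as many as TEK and 0.26% at least as many as IGF1R. The median was 24 in the 11 receptors silent in DMSO, 23.5 in the 24 other receptors with a sequence and 11 over all promoters. At least 15 CG were found in 63.6%, 62.5% and 42.7% of them. The other receptors include TIE1, LTK and MST1R, which had low values. In the 13 receptors with a mean of at least 1000 and a sequence the median was 25, and 69.2% held at least 15. The silent and the other receptors had similar counts in this window, and a count of CG is a description of the sequence and says nothing about binding.

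In the ERBB family, EGFR and ERBB4 rose in all lines and ERBB3 fell in WT and F2, while ERBB2 stayed under the fold limit. EGFR, the receptor for EGF, TGFA and amphiregulin, read 2455, 2662 and 2443 normalized counts with DMSO and 7710.2, 7254 and 7581 with tazemetostat in WT. In E1 EGFR read 3032, 2453 and 2938 with DMSO and 6149, 6155 and 6569.9 with tazemetostat. EGFR in F2 stood at 1537, 1579 and 1643 with DMSO and 4687, 5383 and 5333 with tazemetostat. Treated libraries were above the DMSO libraries of their line without overlap, and F2 had the lowest EGFR under either condition. The log2 rises of EGFR in WT, E1 and F2 were 1.58 ± 0.07 (SE), 1.17 ± 0.07 and 1.69 ± 0.07 (limma adjusted p 1.3e-12, 1.3e-10 and 4.3e-13).

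ERBB2, the ligand-less partner of the family, read 3815, 3842 and 3611 normalized counts with DMSO and 6490.2, 6369 and 6427 with tazemetostat in WT. In E1 ERBB2 read 4168, 3775 and 3187 with DMSO and 4425, 4247 and 4264 with tazemetostat. ERBB2 in F2 stood at 3809, 4323 and 4006 with DMSO and 4855, 4535 and 4754 with tazemetostat. Groups did not overlap within a line, but the log2 changes of 0.78, 0.23 and 0.22 were under 1. Of its exon bases, 7.41% are shared with MIEN1 and PGAP3 on the other strand, and whether the authors counted by strand is not given in the sources used here.

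ERBB3, a neuregulin receptor that signals with ERBB2, read 1884, 1976 and 1896 normalized counts with DMSO and 740.1, 739.8 and 658 with tazemetostat in WT. In E1 ERBB3 read 1575, 1339 and 1618 with DMSO and 873, 1014 and 967 with tazemetostat. ERBB3 in F2 stood at 2501, 2398 and 2416 with DMSO and 1236, 1187 and 1174 with tazemetostat. Every tazemetostat library was below every DMSO library of its line. ERBB3 fell in WT (-1.43 ± 0.08, SE) and F2 (-1.02 ± 0.08), with limma adjusted p of 6e-12 and 9.4e-10. In E1 the change of -0.66 ± 0.08 (adjusted p 5.3e-07) was under the fold limit.

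ERBB4, the other neuregulin receptor, differed between the lines before treatment. In WT it read 107, 99.0 and 106 normalized counts with DMSO and 215, 187 and 256 with tazemetostat. In E1 ERBB4 read 0, 0.965 and 0 with DMSO and 109, 90.9 and 122 with tazemetostat. ERBB4 in F2 stood at 6.15, 4.15 and 3.64 with DMSO and 36.9, 42.4 and 33.3 with tazemetostat. The 3 lines did not overlap with DMSO, where E1 had 1 read in all. With tazemetostat F2 was lowest, and the highest E1 library was below the lowest WT library. The log2 rises of ERBB4 in WT, E1 and F2 were 1.06 ± 0.25 (SE), 6.42 ± 0.25 and 2.79 ± 0.25 (limma adjusted p 0.0011, 6.5e-14 and 1.5e-08). As ratios of means these were 2.11, 334 (95% counting interval 59.9 to 13174) and 8.08. The WT call rests on the library with the highest value: without WT tazemetostat replicate 3 the change was 0.94, under the limit.

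Among the FGF receptors, FGFR1 and FGFR3 were higher with tazemetostat in WT, and FGFR2 and FGFR4 passed nowhere. FGFR1 read 7822, 7780.0 and 7831 normalized counts with DMSO and 16628, 16389 and 16358 with tazemetostat in WT. In E1 FGFR1 read 10539.9, 9527 and 9290.4 with DMSO and 13092, 12212 and 12186 with tazemetostat. FGFR1 in F2 stood at 6086, 6436 and 6218 with DMSO and 11251, 10769 and 10535 with tazemetostat. No groups overlapped within a line, and WT with tazemetostat stood above both clones. FGFR1 rose in WT by 1.08 ± 0.06 (SE, limma adjusted p 4.2e-12). Its changes of 0.35 ± 0.06 in E1 and 0.80 ± 0.06 in F2 were under the fold limit.

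FGFR3 read 828, 728 and 808 normalized counts with DMSO and 1582, 1694 and 1765 with tazemetostat in WT. In E1 FGFR3 read 719.7, 819.6 and 584 with DMSO and 1505, 1278 and 1355 with tazemetostat. FGFR3 in F2 stood at 945, 1208 and 1082 with DMSO and 2230.2, 1967 and 2013 with tazemetostat. Treated libraries were above untreated ones in all lines, by a similar amount. It rose in WT (1.09 ± 0.11, SE, limma adjusted p 7.3e-08), while the changes of 0.97 ± 0.11 in E1 and 0.95 ± 0.11 in F2 lay just under the limit of 1.

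FGFR2, the second most expressed receptor per kilobase in WT with DMSO, read 10095, 9769 and 10127 normalized counts with DMSO and 10682, 10812 and 9955 with tazemetostat in WT. In E1 FGFR2 read 11435, 9787 and 12319 with DMSO and 6256, 6444 and 6207 with tazemetostat. FGFR2 in F2 stood at 10326, 10163 and 9879 with DMSO and 8682, 8887 and 8116 with tazemetostat. The WT groups overlapped, and in E1 and F2 the treated libraries were below the untreated ones. The log2 changes were 0.07, -0.82 and -0.24. FGFR4, a receptor for FGF19, ranged from 147 to 398 normalized counts over all libraries, with overlapping groups in every line.

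Of the PDGF receptors, which bind the PDGF dimers of mesenchymal cells, PDGFRA fell in E1 and PDGFRB in both clones. PDGFRA read 3477, 3468 and 3422 normalized counts with DMSO and 1943, 1816 and 1692 with tazemetostat in WT. In E1 PDGFRA read 3495, 2993 and 3878 with DMSO and 1438, 1545 and 1569.7 with tazemetostat. PDGFRA in F2 stood at 2752, 2744 and 2564 with DMSO and 1372, 1469 and 1402 with tazemetostat. Every treated library was below every untreated library of its line. PDGFRA fell in E1 (-1.18 ± 0.08, SE, limma adjusted p 2e-10), and the changes of -0.93 ± 0.08 in WT and -0.93 ± 0.08 in F2 were under the fold limit. Of its exon bases, 15.8% are shared with AC058822.1 on the same strand, so some reads cannot be assigned with certainty.

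PDGFRB read 3685, 3689.7 and 3802 normalized counts with DMSO and 3122, 2912 and 2935 with tazemetostat in WT. In E1 PDGFRB read 5423, 4563 and 4235 with DMSO and 1251, 1093 and 1203 with tazemetostat. PDGFRB in F2 stood at 3261, 3421 and 3301 with DMSO and 1494, 1384 and 1399.5 with tazemetostat. The treated groups were below the untreated ones without overlap in all lines, by far less in WT than in E1. PDGFRB fell in E1 (-2.00 ± 0.08, SE) and F2 (-1.22 ± 0.08), with limma adjusted p of 4.6e-14 and 6.6e-11, and the WT change was -0.32 ± 0.08. CSF1R, the macrophage colony stimulating factor receptor, read 41.1, 52.8 and 42.6 normalized counts with DMSO and 75.9, 96.3 and 56.6 with tazemetostat in WT. In E1 CSF1R read 81.3, 113 and 89.6 with DMSO and 113, 91.9 and 85.7 with tazemetostat, while its F2 values were 55.3, 45.6 and 65.5 with DMSO and 48.5, 58.5 and 47.2 with tazemetostat. Treated and untreated groups overlapped in both clones, and no tazemetostat change of CSF1R passed (0.71, 0.04 and -0.10).

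Neither receptor of the insulin family passed in any contrast. IGF1R, which binds IGF1 and IGF2, read 6678, 7255 and 7071 normalized counts with DMSO and 8155, 8014 and 8370.4 with tazemetostat in WT. In E1 IGF1R read 9571, 7165 and 8269 with DMSO and 9547, 9529 and 9979 with tazemetostat. IGF1R in F2 stood at 6075, 6195 and 6625 with DMSO and 7813, 8333 and 8427 with tazemetostat. The E1 groups overlapped and the others did not, with log2 changes of 0.23, 0.23 and 0.38. INSR, the insulin receptor, read 1071, 1118 and 1180.1 normalized counts with DMSO and 838, 892 and 849.7 with tazemetostat in WT. In E1 INSR read 1656, 1413 and 1404 with DMSO and 1247, 1164 and 1251 with tazemetostat. INSR in F2 stood at 1190.4, 1219 and 1233 with DMSO and 1154, 1259.6 and 1199 with tazemetostat. The F2 groups overlapped, and the changes were -0.38, -0.28 and -0.01.

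The discoidin domain receptors bind collagen, and of the pair DDR1 rose in WT and F2 and DDR2 in no line. DDR1, the form known from epithelia, read 4776, 4809 and 4893 normalized counts with DMSO and 18643, 18574 and 18288 with tazemetostat in WT. In E1 DDR1 read 12277, 12234 and 9982 with DMSO and 19345, 16915 and 17920.4 with tazemetostat. DDR1 in F2 stood at 4274, 4786 and 4462 with DMSO and 15402, 14153 and 13662 with tazemetostat. E1 with DMSO was already above the other untreated lines, and E1 and WT overlapped once treated. DDR1 rose in WT (1.94 ± 0.08, SE, 3.83-fold) and F2 (1.68 ± 0.08, 3.20-fold), with limma adjusted p of 8.6e-14 and 6.8e-13. The E1 change of 0.66 ± 0.08 was under the limit.

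DDR2, the form known from mesenchymal cells, read 8742, 9274 and 8917 normalized counts with DMSO and 10068, 9751 and 9001 with tazemetostat in WT. In E1 DDR2 read 7498, 5871 and 7854 with DMSO and 6608, 6804 and 7200.2 with tazemetostat. DDR2 in F2 stood at 8743, 8229 and 8464 with DMSO and 6719.6, 7499 and 7617 with tazemetostat. Groups overlapped in WT and E1, and in F2 the treated libraries were below the untreated ones. No DDR2 change passed (0.10, -0.03 and -0.22).

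The TAM receptors, which bind GAS6 and PROS1, passed in none of the 10 contrasts. TYRO3 read 1902, 1889 and 1740.3 normalized counts with DMSO and 1157, 1206 and 1235 with tazemetostat in WT. In E1 TYRO3 read 2351, 2362 and 1965 with DMSO and 1893, 1896 and 2004 with tazemetostat. TYRO3 in F2 stood at 2427, 2553 and 2359 with DMSO and 2068, 1980.2 and 1951 with tazemetostat. It was below its DMSO values without overlap in WT (-0.62) and F2 (-0.29), and the E1 groups overlapped (-0.20). AXL ranged from 449 to 848 normalized counts and MERTK from 593 to 773 over all 18 libraries.

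PTK7, a pseudokinase of WNT and planar polarity signalling, read 18474, 19124 and 18191 normalized counts with DMSO and 18128, 17921 and 17515 with tazemetostat in WT. In E1 PTK7 read 20619.9, 19356 and 16871 with DMSO and 14242, 13647 and 13485 with tazemetostat. PTK7 in F2 stood at 15139, 16317 and 14791 with DMSO and 12273, 11819.8 and 11326 with tazemetostat. Treated libraries were below untreated ones in all lines, narrowly so in WT, with log2 changes of -0.06, -0.45 and -0.38. RYK, a WNT receptor with an inactive kinase domain, read 3160.2, 2998 and 3054 normalized counts with DMSO and 3492, 3510.2 and 3019.6 with tazemetostat in WT. In E1 RYK read 2925, 3230.1 and 3577 with DMSO and 3273, 3653 and 3436 with tazemetostat. RYK in F2 stood at 3057, 2714 and 2758 with DMSO and 3094, 2916 and 2956 with tazemetostat. RYK groups overlapped in every line. FLT4, the VEGFC receptor, ranged from 501 to 1169.9 over all libraries, and its largest tazemetostat change was 0.32 in F2.

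NTRK3, the receptor for neurotrophin 3, had no common direction. In WT it read 658, 724 and 788 normalized counts with DMSO and 264, 253 and 269.7 with tazemetostat. In E1 NTRK3 read 0 in all 3 libraries with DMSO and 1.06, 0.967 and 7.54 with tazemetostat. NTRK3 in F2 stood at 1541, 1628 and 1740.1 with DMSO and 205, 179.7 and 137 with tazemetostat. With DMSO F2 was above WT and E1 had no read in 3 libraries. NTRK3 fell in WT (-1.46 ± 0.36, SE, 2.76-fold) and F2 (-3.25 ± 0.36, 9.41-fold), with limma adjusted p of 0.0017 and 3.3e-07. In E1 it passed as higher (1.71 ± 0.36, adjusted p 0.00068), from 0 to 10 reads in all, most of them in replicate 3, and it was under the limit (0.62) with a pseudocount of 5. Set against 3 reads over the DMSO group the E1 ratio was 3.38, which takes the treated reads as exact. Replicates 1 and 2 held 1 read each, so 3.38 is not a lower limit for NTRK3.

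The clones were next compared with WT. These comparisons share the WT libraries. With DMSO 6 of 26 receptors passed between E1 and WT (all genes 5.04%), and 2 between F2 and WT (all genes 2.98%), with medians over the tested receptors of 0.01 and -0.06. E1 was higher for RET (2.06 ± 0.27, SE), DDR1 (1.25 ± 0.08), CSF1R (1.04 ± 0.20) and FLT3 (1.03 ± 0.22). The limma adjusted p were 1.3e-05, 6.9e-10, 0.0009 and 0.0023. CSF1R dropped to between 0.90 and 0.99 without WT replicate 1, WT replicate 3 or E1 replicate 2, and FLT3 to between 0.77 and 0.98 without WT replicate 1, WT replicate 3 or E1 replicate 1, all with DMSO.

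E1 was lower for ERBB4 (-6.39 ± 0.25, SE, limma adjusted p 9.1e-13) and for NTRK3 (-9.50 ± 0.36, adjusted p 6.3e-13). Set against 3 reads over the group, NTRK3 was at least 766-fold lower in E1 than in WT. F2 was likewise lower than WT for ERBB4 (-4.24 ± 0.25, adjusted p 6.5e-10, 22.4-fold), but higher for NTRK3 (1.18 ± 0.36, adjusted p 0.027, 2.26-fold). The NTRK3 call in F2 missed the adjusted p limit, at log2 changes of 1.11 to 1.18, without WT replicate 1, WT replicate 2, F2 replicate 2 or F2 replicate 3, all with DMSO. It also missed that limit with a pseudocount of 0.5. Its SE is pooled over all 6 groups, including those of E1 with few NTRK3 reads. The F2 and WT libraries with DMSO did not overlap, and the call held by edgeR, by DESeq2 and with only the groups compared.

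Compared directly with DMSO, E1 and F2 differed in 4 receptors (all genes 7.56%), with a receptor median of 0.16. E1 was higher for RET (2.96 ± 0.27, SE) and DDR1 (1.35 ± 0.08), and lower for ERBB4 (-2.15 ± 0.25) and NTRK3 (-10.68 ± 0.36). The limma adjusted p were 7.6e-08, 1.2e-10, 1.9e-06 and 6.7e-14. NTRK3 was at least 1733-fold lower in E1 than in F2, so the 2 RB1-null clones were farther apart in this gene than either was from WT on the log2 scale.

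With tazemetostat 5 receptors passed between E1 and WT (all genes 11.3%) and 4 between F2 and WT (all genes 12.3%), each with a receptor median of -0.26. FLT1 (-1.85 ± 0.29, SE, in E1 and -1.69 ± 0.29 in F2), PDGFRB (-1.34 ± 0.08 and -1.07 ± 0.08) and ERBB4 (-1.02 ± 0.25 and -2.51 ± 0.25) were lower in both clones. Their limma adjusted p were 3.1e-05 and 7.4e-05, 1.1e-10 and 1.7e-09, and 0.0021 and 1.4e-07. ERBB4 in E1 was at -0.91 without WT replicate 3 and also without E1 replicate 2, both with tazemetostat. NTRK3 was lower in E1 (-6.33 ± 0.36) and RET higher (1.29 ± 0.27), and FLT3 was higher in F2 (1.28 ± 0.22). The limma adjusted p of these 3 were 1.2e-10, 0.00056 and 0.00011.

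The response difference asks whether tazemetostat moved a gene by another amount in a clone than in WT. It passed for 5 receptors in E1 (all genes 10.0%) and 4 in F2 (all genes 7.48%), with medians of -0.19 and -0.07. ERBB4 rose more in E1 (5.36 ± 0.35, SE) and in F2 (1.73 ± 0.35) than in WT, with limma adjusted p of 3.4e-09 and 0.0012, and it started lower in both clones. PDGFRB fell more in E1 (-1.68 ± 0.11, adjusted p 2.5e-09), and its difference in F2 was -0.90, under the fold limit. DDR1 responded less in E1 (-1.28 ± 0.11, adjusted p 6.3e-08) and RET more in F2 (1.28 ± 0.38, adjusted p 0.017). The RET difference dropped to 1.00 without WT replicate 2 and to 0.96 without F2 replicate 2, both with DMSO.

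NTRK3 differed in opposite directions, 3.16 ± 0.51 (SE) in E1 and -1.79 ± 0.51 in F2 (limma adjusted p 9.9e-05 and 0.014). With 0 reads in E1 with DMSO, NTRK3 could not fall there. Since it fell in WT, the E1 difference had to be above 0, and its sign is no result. FLT1 rose less in E1 (-1.53 ± 0.40, adjusted p 0.0068) and F2 (-1.37 ± 0.40, adjusted p 0.017) on log2(normalized count + 1). With 0 or 1 DMSO reads these differences depend on how a count of 0 is treated, and edgeR on the recovered reads gave -0.05 in E1 and 0.13 in F2. FLT1 in F2 also missed the adjusted p limit, at -1.21, without F2 tazemetostat replicate 2. Neither MET difference passed, at 0.61 ± 0.49 (SE) for E1 and 1.02 ± 0.49 for F2 (adjusted p 0.36 and 0.14).

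The growth factors that bind these receptors were read from a list of 66 ligands, 41 of them tested. With tazemetostat WT had 21 higher and 1 lower, E1 16 and 2, and F2 21 and 2. The list medians were 1.08, 0.57 and 1.11 on the log2 scale, beside 0.03, 0.02 and 0.02 over all tested genes. Of the 41, EGF, TGFA, EREG, FGF1, FGF9, PDGFC, PDGFD, KITLG, VEGFC and PTN reached the mean of 10 only through their tazemetostat libraries, so they had to be above DMSO. Without these 10, WT had 11 higher and 1 lower, E1 6 and 2, and F2 11 and 2, of 31, with medians of 0.65, 0.41 and 0.81. IGF2, the fetal ligand of IGF1R, went from 23.7 ± 8.05 to 4307 ± 152 normalized counts (SD, n = 3) for WT, from 13.2 ± 2.22 to 5851 ± 559 for E1 and from 11.4 ± 2.81 to 10988 ± 621 for F2. These are rises of 181-fold, 444-fold and 965-fold.

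KITLG, the ligand of KIT, rose from below 1 to 849 ± 45.1 normalized counts (SD, n = 3) for WT, 529 ± 102 for E1 and 279 ± 11.9 for F2. Ligand and receptor of this pair were therefore both near 0 with DMSO and detected with tazemetostat. PTN, a heparin-binding ligand linked to ALK, had 0 reads with DMSO in all lines and stood at 111 ± 11.2, 176 ± 18.3 and 184 ± 9.00 with tazemetostat. BDNF, the ligand of NTRK2, rose in WT from 302 to 1905 normalized counts, E1 moving from 532 to 1592 and F2 from 112 to 1003.

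Among the EGFR ligands, TGFA rose in every line, from at most 0.630 normalized counts with DMSO to 65.2 (WT), 80.2 (E1) and 83.9 (F2). EGF reached 65.1, 35.3 and 26.0, and EREG 32.2, 24.5 and 11.5, each from under 2 with DMSO. HBEGF fell in F2 (-1.02) and was at -0.80 and -0.23 in WT and E1, under the limit. The neuregulins, ligands of ERBB3 and ERBB4, did not share a direction. NRG4 fell in E1 (-1.24) and F2 (-2.18) and was at -0.35 in WT. NRG2 rose in all lines (1.08, 1.85 and 2.19), and NRG1 rose in WT (1.53) and was at 0.73 and 0.86 in the clones. FGF20 fell in WT (-2.35) and E1 (-1.49) and was at -0.97 in F2.

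PDGFC and PDGFD, ligands of the PDGF receptors, rose in every line, PDGFC from 6.51 to 301 normalized counts (WT), from 0 to 93.3 (E1) and from 3.46 to 356 (F2). PDGFD reached 60.3, 26.7 and 69.6 from under 1. HGF, the ligand of MET, averaged at most 0.952 normalized counts in any group, FLT3LG at most 2.95 and GDNF at most 0.951. These ligands of MET, FLT3 and RET were at or near 0 in all 6 groups. Of the other ligands that act through RET, GDF15 rose in WT (1.30), from 1324 to 3269 normalized counts, and was at 0.52 in E1, under the limit. The F2 change of GDF15 is not given here. NRTN, ARTN and PSPN passed in no line with tazemetostat. NRTN had log2 changes of -0.62, -0.42 and -0.26 for WT, E1 and F2, ARTN of -0.47, 0.45 and 0.39, and PSPN of 0.91, 0.04 and 0.60. Their DMSO means in WT were 125, 18.8 and 124 normalized counts.

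Of 12 co-receptors on the list 8 were tested, and 6 were higher in WT, 5 in E1 and 6 in F2, with none lower. The medians were 3.50, 4.61 and 5.39, and that of E1 was 4.64 with genes at 0 reads in DMSO set to their lower bound. NRP2, GFRA2 and SORL1 reached the mean of 10 only through tazemetostat libraries and had to be above DMSO. Without them 3 of 5 were higher in WT, 2 in E1 and 3 in F2, with medians of 1.80, 0.61 and 2.95. NRP2, a semaphorin and VEGF co-receptor, went from at most 0.630 to 2433 ± 70.0 normalized counts (SD, n = 3) for WT, 3953 ± 106 for E1 and 7541 ± 237 for F2. NRP1 rose by 3.24, 7.38 and 5.67 on the log2 scale and SORL1, a sorting receptor, by 8.08, 8.22 and 8.81. The RET co-receptor GFRA1 rose by 3.77, 2.94 and 5.10, and GFRA2 reached 76.6, 76.6 and 64.8 normalized counts from 0 reads with DMSO.

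**Figure D5:**
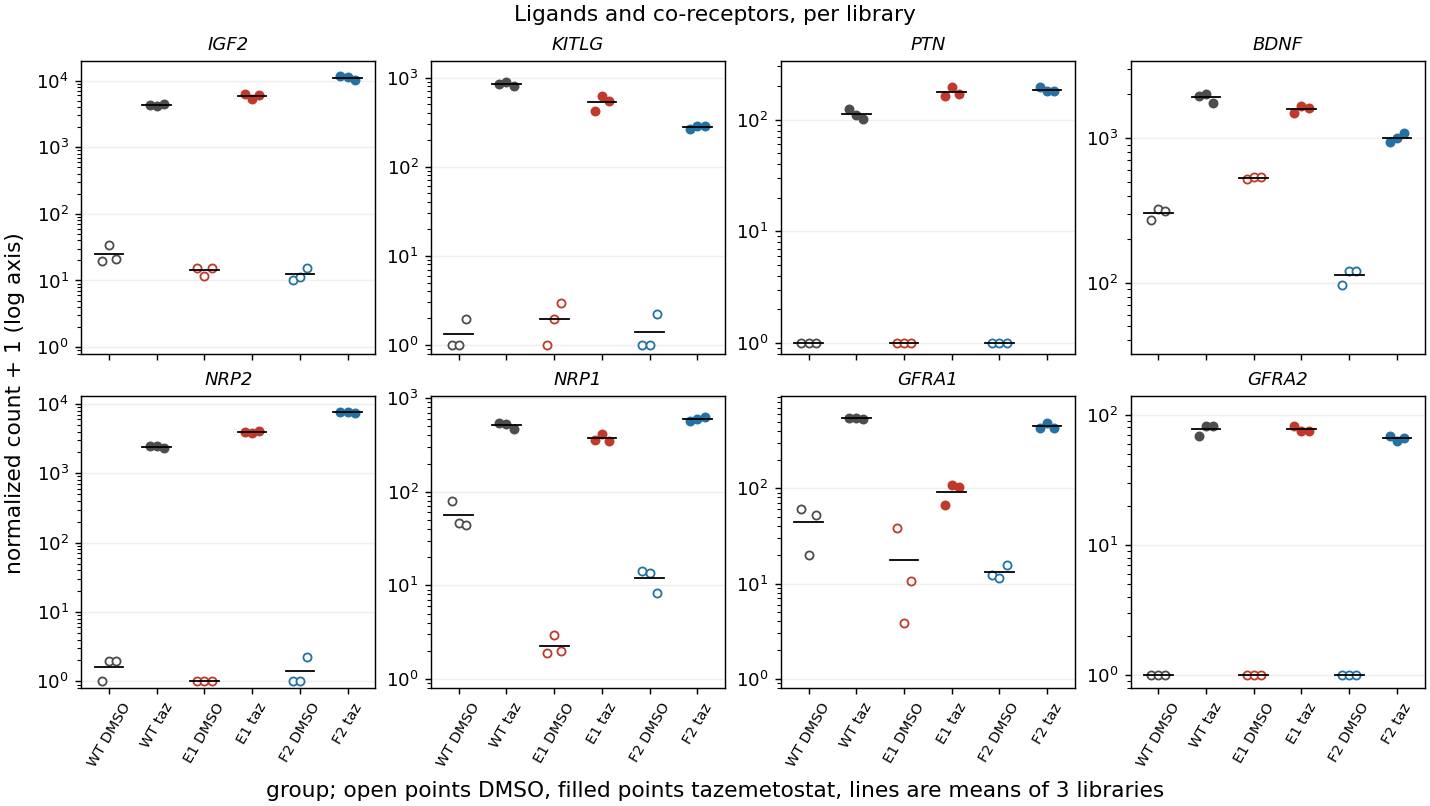
Normalized count + 1 on a log axis for 4 ligands (IGF2, KITLG, PTN, BDNF) and 4 co-receptors (NRP2, NRP1, GFRA1, GFRA2), per library and group, with open points for DMSO, filled points for tazemetostat (taz) and a line at the mean of 3 libraries. In all 8 panels the filled points of a line lie above its open points.

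Of 33 adaptors and proximal effectors 26 were tested, with 3 higher in WT, 2 in E1 and 2 in F2, none lower, and medians of 0.24, 0.01 and -0.09. IRS2 was tested only through its tazemetostat libraries. Without it 2 of 25 were higher in WT, 1 in E1 and 1 in F2, with medians of 0.22, -0.01 and -0.12. PIK3R1, the regulatory subunit of PI3 kinase, rose in all lines (2.25, 1.26 and 3.19), as did the insulin receptor substrate IRS2, to 32.1, 18.9 and 19.1 normalized counts from under 1. The adaptor SHC1 rose in WT (1.09), from 14695 ± 207 to 31295 ± 757 normalized counts (SD, n = 3). The GRB2 adaptor was at 0.39, -0.05 and 0.04.

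Of 22 ERK feedback and target genes 21 were tested: 7 were higher and 2 lower in WT, 8 and 0 in E1, and 7 and 1 in F2, with medians of 0.17, 0.29 and 0.44. SPRY1 and SPRY2, inhibitors of receptor signalling, went opposite ways. SPRY1 fell in WT (-1.88) and F2 (-1.86) and was at -0.99 in E1, while SPRY2 rose in all lines (3.74, 5.60 and 6.30). LRIG1, which promotes turnover of ERBB receptors, rose by 3.04, 3.96 and 1.92, LRIG3 by 2.84, 7.08 and 5.06 and PHLDA1 by 3.67, 2.50 and 4.37. ETV4, a transcription factor downstream of ERK, fell in WT (-1.01) and was at -0.07 and -0.99 in the clones. The ERK phosphatase DUSP6 stayed under the limit (-0.23, -0.14 and 0.15). Other genes of the list rose: DUSP5 in WT (2.29) and E1 (1.57), and FOSL1 in WT (1.64) and E1 (1.29). CCND1 rose in WT (1.05) and was at 0.29 in E1, and EGR1 rose in E1 (1.43) and was at 0.88 in WT. The F2 changes of DUSP5, FOSL1, CCND1 and EGR1 are not given here, which does not mean that they did not rise.

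Markers of cell types that use these receptors were read as a check, and their part in the results was not tested. Of the endothelial, haematopoietic, epithelial, neuronal and fibroblast markers counted here, VWF, CD33, KRT5, KRT14, SYT1, LUM and FN1 reached the mean of 10 only through tazemetostat libraries and had to be above DMSO. Of the 7 endothelial markers 6 were found by symbol, and their summed level was 18.3 to 32.0 normalized counts with DMSO and 81.8 to 107 with tazemetostat for WT, 21.2 to 22.4 and 50.3 to 82.0 for E1, and 5.19 to 17.4 and 94.3 to 112 for F2. CDH5, which defines endothelium, had at most 29 reads in any library. Of the 2 tested, 1 was higher in WT and in E1 and 2 in F2. Without VWF, 1 was left, and it was higher in F2 only. CLDN5 went from 4.31 to 2.35 in WT, from 4.71 to 3.13 in E1 and from 2.18 to 3.14 in F2, and EMCN was at 0 in both clones. FLT1, KDR, TEK and TIE1 were above DMSO in each line, as was the sum of this list. FLT1 was tested only through its tazemetostat libraries, and KDR, TEK and TIE1 were untested. FLT4 passed in no line (-0.04, 0.09 and 0.32 in WT, E1 and F2).

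The 8 haematopoietic markers summed to 9.42 to 17.0 and 123 to 169 for WT, 40.9 to 45.4 and 379 to 397 for E1 and 12.1 to 20.7 and 238 to 271 for F2, without and with tazemetostat. PTPRC and CD3E, which define blood cells, had at most 2 reads in any library, and the sum was carried by CD33 (116, 219.7 and 151 on average with tazemetostat) and LAPTM5 (27.0, 159.6 and 91.8). KIT and FLT3 moved with it, while CSF1R passed in no line (0.71, 0.04 and -0.10 in WT, E1 and F2). Of the 7 epithelial markers 5 were tested, and 3, 4 and 3 were higher (0, 1 and 1 lower) in WT, E1 and F2. Without KRT5 and KRT14, 1, 2 and 1 of 3 were higher and 0, 1 and 1 lower. The 7 markers summed to 294 to 341 and 1376 to 1516 for WT, 50.9 to 70.1 and 769.8 to 808 for E1 and 167 to 232 and 2974 to 3509 for F2. EGFR, MET and DDR1 moved with them. ERBB3 went the other way (-1.43, -0.66 and -1.02), and FGFR2 passed in no line (0.07, -0.82 and -0.24). KRT5 made up much of the rise in the epithelial sum (771, 508 and 2599 from 0). EPCAM, the epithelial marker that fell in the clones, had at most 19 reads in any library.

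The fibroblast list (5 of 6 tested) had 4, 3 and 4 higher and 1 lower in each line. Without LUM and FN1, 2, 1 and 2 of 3 were higher. The lower one was COL3A1, from 26521 to 4349 normalized counts in WT, 30948 to 7803 in E1 and 26302.5 to 12857 in F2. PDGFRB fell in E1 and F2, and its change in WT was -0.32. The summed level of the list was below that of DMSO in WT and E1 and above it in F2. The neuronal list (3 of 6 tested) had 2, 1 and 2 higher, and 1, 0 and 1 of 2 without SYT1. The skeletal muscle list (2 of 6) had none. MYF5 had 0 reads throughout. Of the rhabdoid line's own markers VIM, KRT8, KRT18 and SMARCA4 were expressed in all groups, and KRT8 and KRT18 were higher in each line.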

How the data were processed

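RNA of 18 G401 libraries (TruSeq stranded, poly(A), paired end, per the labels' protocols) was deposited by the authors as 1 table of normalized counts, a signal unit in which gene counts are divided by 1 size factor per library. Per the submitters' processing notes, the tools were Trim Galore 0.4.4, STAR 2.6.0a, HTSeq and DESeq2 with genome build hg19. The annotation and the strand setting of the counting are not given in the sources used here. Values were whole multiples of 1 read per library (100.0% within 0.01 of a whole read), so reads were recovered by dividing by that step, which gave size factors of 0.812 to 1.145. Reads were used for floors, intervals and the count models edgeR 4.0.16 and DESeq2 1.42.0, run as alternatives.

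The deposited values were tested on the log2(value + 1) scale with limma 3.58.1 (trend, R 4.3.3) over 6 group means from all 18 libraries, in 10 contrasts, for genes with a mean of at least 10. Adjusted p-values are over all genes tested. A group at 0 reads was set to 3 reads over the group for a lower bound of a ratio, and 1 to 3 reads carry an exact Poisson interval at 95%. Both cover counting error in that low group only, and the other group is taken as measured. Exon lengths and shared bases are from GENCODE 29 on GRCh38, matched by symbol. Figures were drawn with matplotlib 3.10.9.

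The 38 members, the gene lists and the tests were chosen with earlier results of these data known. Values in every library are given for receptors with a mean of at least 1000, or of at least 50 and past the threshold in a contrast. From each pathway list the 3 largest rises and falls per line with a mean of at least 50 and no overlap are named. TGFA, EGF, EREG, BDNF, PDGFC, PDGFD, HGF, FLT3LG, GDNF, NRTN, ARTN, PSPN, NRG1, NRG2, GFRA2, IRS2, GRB2 and DUSP6, like values of named genes in other lines, were added after their values were seen. So were GDF15, DUSP5, FOSL1, CCND1 and EGR1. Same-numbered replicates were checked for shared deviations. Only in F2 against WT with DMSO were all 3 correlations over 0.1 (0.18, 0.11 and 0.38), so by that cut the numbers count as pairs there. The WT response to tazemetostat also had 3 positive values (0.096, 0.050 and 0.32). All p-values given are from the model without a replicate block.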

Additional observations from a re-analysis of the deposited data

Results flagged for a closer look

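The tazemetostat response of 6 receptors differed from that of WT in at least 1 clone by limma's test of the difference itself. In E1 the log2 differences were 5.36 for ERBB4, 3.16 for NTRK3, -1.68 for PDGFRB, -1.53 for FLT1 and -1.28 for DDR1. In F2 they were 1.73 for ERBB4, -1.79 for NTRK3, -1.37 for FLT1 and 1.28 for RET. ERBB4 is the receptor with a larger response in both clones, and it was at 1 read in E1 and 13 reads in F2 over the DMSO libraries, against 339 in WT. NTRK3 differed in opposite directions, from 0 reads in E1 with DMSO and 4507 in F2. From 0 reads it could not fall in E1, so the sign of that difference followed from the fall in WT. FLT1 had 0 reads with DMSO in both clones and 1 in WT, so its differences rest on the value added before the logarithm.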

How the results depend on the processing

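Counts of receptors past the threshold stayed within 1.5 times in 164 of 182 alternatives. Testing genes with a mean of at least 1, or all genes, gave 20 in WT, 18 in E1 and 18 in F2 for the tazemetostat response. Without the fold limit the response counts were 20, 20 and 20 for WT, E1 and F2, E1 and F2 against WT 15 and 11 with DMSO and 21 and 20 with tazemetostat, the response differences 12 and 16, and E1 against F2 19. The shares of all genes called without it were, in the same order, 64.2%, 46.8%, 52.2%, 23.2%, 20.2%, 51.8%, 53.1%, 35.4%, 26.9% and 37.1%. A pseudocount of 0.5 left 1 receptor, ERBB4, for F2 against WT with DMSO.

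Leaving out 1 library gave 10 to 12 (WT), 9 to 11 (E1) and 10 to 12 (F2) for tazemetostat, 4 to 6 and 1 to 3 for E1 and F2 against WT with DMSO, 4 to 6 and 4 to 4 with tazemetostat, 5 to 6 and 3 to 5 for the response differences and 4 to 4 for E1 against F2. The count of 1 came without F2 DMSO replicate 2.

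With the replicate block the 10 counts were 11, 9, 10, 6, 2, 5, 4, 5, 4 and 4, as without it. Outside F2 against WT with DMSO the correlations of same-numbered replicates ranged from -0.24 to 0.32. These values do not settle whether the replicates were paired.

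For the 60 gene results past the threshold, 977 of 1012 alternatives kept direction and side, 34 fell below the threshold and 1 reversed: FLT1 in the F2 response difference, 0.13 by edgeR and -0.97 by DESeq2, neither past the threshold. The FLT1 difference in E1 was -0.05 and -0.94 by the same tools. Scaling to the same total moved PDGFRB in F2 against WT with tazemetostat to -0.92 and shifted the median of all genes there from 0.00 to 0.14; no receptor past the threshold changed sign under it or under TMM. ERBB4 in E1 against F2 was at -0.85 with a pseudocount of 5.

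Receptors with few DMSO reads have no measurable size of change, and 12 of the 38 were not tested for low values.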
